A study of Homo sapiens with 32 samples.

Results

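Knockdown of CSN5 in the human prostate cancer line C4-2 was described by comparing 2 libraries from cells infected with an shRNA against CSN5 (shCSN5) with 2 libraries from cells infected with a scramble shRNA. These 4 libraries, taken by their labels from the 32 of the series, share a table of counts per gene. C4-2 was derived from LNCaP and grows after castration. Both groups are C4-2 cells infected with an shRNA construct, total RNA was extracted with a Direct-Zol kit, and the cells were grown after the instructions of their supplier, ATCC. Both knockdown libraries have sh37 in their titles, the hairpin sequence and the time after infection are not stated in the labels, and effects of this hairpin other than on its target were not tested. 22Rv1, another castration-resistant prostate cancer line, and LNCaP, the androgen-dependent parent of C4-2, also have 2 shCSN5 and 2 scramble libraries each, and they are used below only to test where the response of C4-2 differed.

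CSN5, the product of COPS5, carries out the catalysis of the COP9 signalosome, a complex that removes the ubiquitin-like protein NEDD8 from cullins. Cullins are the scaffolds of the largest family of ubiquitin ligases, which recognise their substrates through exchangeable receptors such as F-box and DCAF proteins. Cycles of NEDD8 addition and removal let a cullin change its receptor, and cell cycle inhibitors, replication licensing factors and stress regulators are among the proteins that these ligases mark for degradation.

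The shCSN5 libraries held 26044347 and 26002109 counts and the scramble libraries 26234285 and 23414844. Each of 11 luminal prostate markers, among them KLK3, HOXB13 and FOXA1, had at least 1703 counts in every library. Of 5 genes that C4-2 should lack or hold low, CD44, AXL, ANXA1 and KRT5 had at most 7 counts in any library, while VIM had 356 and 388 counts with shCSN5 and 401 and 400 with scramble. Summed counts of 10 fibroblast markers were 103 and 98 with shCSN5 and 82 and 117 with scramble, and those of 11 leukocyte markers were 63 and 64 with shCSN5 and 54 and 56 with scramble. Single markers in these lists were higher with shCSN5: COL3A1 had 18 and 15 counts with shCSN5 and 1 and 6 with scramble (edgeR adjusted p = 0.032), and CD68 had 21 and 20 with shCSN5 and 5 and 6 with scramble (edgeR adjusted p = 0.01). Neither was called without scramble replicate 1, nor COL3A1 without shCSN5 replicate 1. Nothing in the labels says that the replicates are separate cultures, so each p measures the spread between these libraries, which may be technical. In bulk RNA, fewer cells in a state and less RNA per cell cannot be told apart.

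Of 57445 genes listed, 14874 passed the filter on low counts and were tested with the quasi-likelihood test of edgeR. At a Benjamini-Hochberg adjusted p under 0.05, 4754 genes (32.0% of those tested) changed, of which 2338 (15.7%) were higher and 2416 (16.2%) were lower with shCSN5. By at least 2-fold, 763 (5.13%) rose and 899 (6.04%) fell, and the median log2 change of all genes tested was -0.02. Fewer genes were called when any single library was left out. Genes called both with and without a library kept their direction. The fits share most of their libraries, so this was nearly bound to hold and is no test of direction. Levels below are in CPM, the usual scaling of counts to a common library total, here with TMM factors, and are compared between libraries only, not between genes. Changes are log2 fold changes of shCSN5 over scramble, ± SE, with n = 2 libraries in each group.

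COPS5 itself stood at 10.5 and 10.4 CPM in the shCSN5 libraries, against 130.2 and 116 CPM in the scramble libraries. The groups lay far apart, with a change of -3.56 ± 0.12 (adjusted p = 1.2e-05). None of the other 9 subunits of the complex was called by edgeR (3 of the 10 with COPS5 had an unadjusted p under 0.05), and their changes ran from -0.29 for COPS3 to 0.26 for COPS8. COPS6, which pairs with CSN5 in the complex, was at 151 and 148 CPM in shCSN5 cells, against 153 and 158 CPM in scramble cells. Without scramble replicate 1 the subunits called were 2, COPS5 and 1 that was higher, and without scramble replicate 2 they were again 2, both lower. Of 10 cullins and RING partners none was called by edgeR, with changes from -0.17 to 0.18 on the log2 scale, with 0 at an unadjusted p under 0.05 and 0 called by DESeq2. Among 12 genes that attach NEDD8 or exchange receptors, 4 were higher and none lower, where 15.7% of all genes tested were higher. UBE2F, a NEDD8-conjugating enzyme, was at 48.2 and 47.9 CPM with shCSN5 and 31.6 and 26.9 CPM with scramble (0.72 ± 0.13, adjusted p = 0.0047). That count of 4 fell to 1 without either shCSN5 library and to 2 without either scramble library, with 1 of the 2 lower where scramble replicate 2 was left out. Of 29 substrate receptors 6 rose and 5 fell, shares close to the 15.7% and 16.2% of all genes tested. The damage sensor DDB2 (1.09 ± 0.11) and the F-box gene FBXO32 (1.19 ± 0.15) were higher, while DTL, the receptor that directs degradation of CDT1 and p21 during replication, was at 14.4 and 15.4 CPM with shCSN5 and 64.4 and 55.2 CPM with scramble (-2.01 ± 0.13, adjusted p = 9.7e-05). SKP2, the F-box protein that directs degradation of p27, was also lower (-1.03 ± 0.12).

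Among the largest increases with shCSN5, in genes of at least 5 CPM on average, were those of genes of varied function. CAMK2N1, an inhibitor of the kinase CaMKII, was at 195 and 186 CPM with shCSN5, against 5.21 and 4.86 CPM with scramble (5.24 ± 0.12, adjusted p = 1.6e-06). TNFSF15, a cytokine of the TNF family, was at 215 and 226 CPM with shCSN5 and 6.18 and 5.53 CPM with scramble (5.23 ± 0.12). GDF15, a stress-induced cytokine, was the most spread of these genes within a group, at 1232 and 919.8 CPM with shCSN5 and 37.1 and 56.8 CPM with scramble (4.52 ± 0.23). These genes were chosen with groups that do not overlap as a condition. CA1, a carbonic anhydrase, reached 19.7 and 20.1 CPM with shCSN5, against 1.43 and 1.01 CPM with scramble (4.02 ± 0.20). S100P, a calcium-binding protein, reached 293 and 292 CPM with shCSN5, against 24.9 and 25.5 CPM with scramble (3.54 ± 0.098). Further down stood the B-cell adaptor gene BLNK (3.29 ± 0.21), the cadherin gene CDH26 (3.18 ± 0.17), the p53 target TP53I3 (2.94 ± 0.13) and EGLN3, a prolyl hydroxylase of the hypoxia response (2.80 ± 0.14). DRAIC, a long noncoding RNA studied in prostate cancer and named here after its values were seen, was at 9.62 and 11.1 CPM with shCSN5, against 1.39 and 0.921 CPM with scramble (3.15 ± 0.22; listed in the table as RP11-279F6.1).

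After COPS5, the deepest decrease among genes of at least 5 CPM was that of TTN, the giant sarcomere protein titin, at 1.74 and 2.01 CPM with shCSN5 and 17.4 and 15.6 CPM with scramble (-3.14 ± 0.18, adjusted p = 6.8e-05). CCDC141, which lies beside TTN on human chromosome 2, was at 3.24 and 3.24 CPM with shCSN5 and 24.4 and 20.8 CPM with scramble (-2.80 ± 0.16). RND3, an atypical small GTPase, was at 3.36 and 3.40 CPM with shCSN5 and 29.3 and 24.3 CPM with scramble (-2.99 ± 0.17). In these 3 genes both shCSN5 libraries lay several-fold below both scramble libraries. IGF1, the growth factor ligand, was at 6.06 and 5.33 CPM with shCSN5 and 32.7 and 31.5 CPM with scramble (-2.49 ± 0.15). TMEM100 (-2.89 ± 0.18), the MYB-family gene MYBL1 (-2.70 ± 0.18), the tetraspanin-like gene TM4SF1 (-2.30 ± 0.12), the intermediate filament gene NES (-2.29 ± 0.16) and the transporter gene SLC16A6 (-2.23 ± 0.16) complete the 10 largest.

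**Figure D1:**
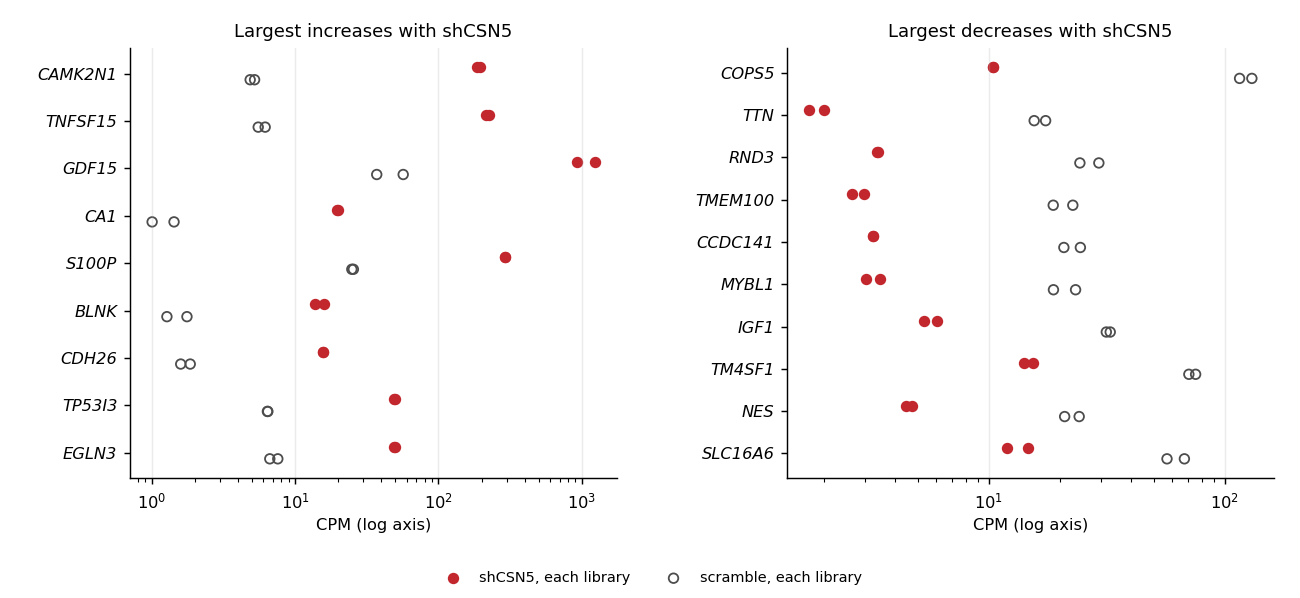
CPM on a log axis for the genes with the largest increases (left) and decreases (right) in C4-2, 1 point per library, shCSN5 filled and scramble open. The genes were chosen with groups that do not overlap as a condition, and COPS5 was at 10.5 and 10.4 CPM against 130.2 and 115.5 CPM.

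Genes that cells use to copy and divide their chromosomes fell together in the shCSN5 libraries, with list medians from -1.29 to -1.66 on the log2 scale. Of 17 origin licensing genes 15 fell and none rose, with a median of -1.54: MCM4, of the replicative helicase, was at 130.1 and 132 CPM with shCSN5 and 408 and 404 CPM with scramble (-1.63 ± 0.087, adjusted p = 6.2e-05), and CDC6, the helicase loader, was also lower (-1.76 ± 0.11). Not called were ORC2 (-0.41) and ORC4 (0.16), of the origin recognition complex. Of 30 genes of the replication fork and nucleotide supply 29 fell, with a median of -1.39. RRM1, the large subunit of ribonucleotide reductase, was at 85.1 and 87.6 CPM with shCSN5 and 358 and 309 CPM with scramble (-1.95 ± 0.11), and its partner RRM2 was at 94.4 and 92.98 CPM with shCSN5 and 341 and 292 CPM with scramble (-1.76 ± 0.11). The p53-inducible form of that subunit, RRM2B, moved the other way, at 302 and 314 CPM with shCSN5 and 178 and 146 CPM with scramble (0.93 ± 0.11). Homologous recombination and Fanconi genes fell in 20 of 23 cases (median -1.31), among them BRCA1 (-1.64 ± 0.11) and BRCA2 (-1.61 ± 0.11).

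Of 23 mitotic kinases, cyclins and regulators 22 fell, with a median of -1.61. CDC20, which activates the anaphase-promoting complex, was at 44.5 and 39.7 CPM with shCSN5 and 166 and 191 CPM with scramble (-2.08 ± 0.12, adjusted p = 6.8e-05). CCNA2, the cyclin of S phase and early mitosis, was at 26.1 and 24.8 CPM with shCSN5 and 120.4 and 101 CPM with scramble (-2.12 ± 0.12). Of 26 kinetochore and centromere genes 24 fell (median -1.47), among them HJURP, the chaperone of the centromeric histone, at 29.4 and 27.9 CPM with shCSN5 and 103 and 101 CPM with scramble (-1.83 ± 0.10). Cohesin and condensin genes fell in 16 of 18 cases (median -1.29). The kinesin family divided by role: all 12 mitotic kinesins tested fell, from -1.37 to -1.91, whereas of 12 kinesins of intracellular transport 7 rose and none fell (median 0.41). KIF20A, a kinesin of cytokinesis, was at 38.7 and 36.3 CPM with shCSN5 and 146 and 135 CPM with scramble (-1.91 ± 0.10). KIF3A, a motor of cilia and axons, was at 74.9 and 79.1 CPM with shCSN5 and 49.1 and 39.5 CPM with scramble (0.80 ± 0.13). The transport count was 3 without shCSN5 replicate 2, with none lower.

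The promoters of 3 of these mitotic genes are shown because genes of mitosis are known to be controlled through elements near their start sites. These include the CHR element, bound by the MuvB complex, and the CCAAT box, bound by NF-Y. Each line gives 250 bases before and 50 bases after the start from RefSeq on GRCh38.p14, 5′ to 3′ on the strand of the gene. Capitals mark TTTGAA (the CHR element) or CCAAT, read on either strand. The windows are chr1:43358731-43359030 on the plus strand for CDC20, chr5:138178862-138179161 on the plus strand for KIF20A and chr4:121823834-121824133 on the minus strand for CCNA2.
CDC20 promoter: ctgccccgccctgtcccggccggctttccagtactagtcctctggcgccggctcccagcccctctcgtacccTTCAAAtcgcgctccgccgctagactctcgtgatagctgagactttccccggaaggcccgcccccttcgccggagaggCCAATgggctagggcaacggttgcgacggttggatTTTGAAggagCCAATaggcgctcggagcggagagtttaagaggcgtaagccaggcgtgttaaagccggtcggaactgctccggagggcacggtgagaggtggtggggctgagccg
KIF20A promoter: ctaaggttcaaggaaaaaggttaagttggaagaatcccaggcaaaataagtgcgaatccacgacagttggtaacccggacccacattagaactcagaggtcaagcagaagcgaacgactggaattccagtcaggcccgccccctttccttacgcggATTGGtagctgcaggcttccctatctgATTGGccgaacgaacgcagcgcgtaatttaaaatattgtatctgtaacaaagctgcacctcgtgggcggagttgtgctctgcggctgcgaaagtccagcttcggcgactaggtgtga
CCNA2 promoter: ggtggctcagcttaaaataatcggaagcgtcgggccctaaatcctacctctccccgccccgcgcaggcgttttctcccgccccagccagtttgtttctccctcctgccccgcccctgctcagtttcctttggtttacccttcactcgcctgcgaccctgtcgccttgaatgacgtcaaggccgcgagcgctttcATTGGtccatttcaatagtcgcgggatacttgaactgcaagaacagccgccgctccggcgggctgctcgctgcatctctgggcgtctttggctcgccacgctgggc

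CDC20 held 4 matches, with the CHR element at positions -178 and -65 and CCAAT at -100 and -55 from the start. KIF20A held 2 matches, both of CCAAT, and CCNA2 held 1, of CCAAT. Only the letters TTTGAA were searched for the CHR element, so a variant of it would not have been found in these promoters. Over the lists, TTTGAA on either strand was found in 28 of 50 promoters of mitotic kinases, kinetochore genes and mitotic kinesins (56.0%), in 1 of 41 promoters of licensing and fork genes (2.44%), and in 9.34% of 10046 promoters of protein-coding genes tested. It was found in 15.5% of promoters of genes called lower, in 21.6% of those lower by at least 2-fold and in 8.24% of those called higher, while no share is given for genes higher by at least 2-fold, of which 75.1% had a promoter in the table. CCAAT was found in 74.0% of the mitotic promoters and in 37.0% of those of all protein-coding genes tested. The E2F site GGCGGGAA, on either strand, was found in 22.0% of licensing and fork promoters and in 8.0% of mitotic promoters, against 5.27% of those of all protein-coding genes tested. Over all 27305 promoters of the reference table, TTTGAA was in 15.4%, CCAAT in 35.7% and GGCGGGAA in 3.18%. No 2 matches overlap in the lines shown, and a match is a run of letters, not a measured binding site. A promoter was found for 82.0% of the mitotic, 87.2% of the licensing and fork, 82.3% of the lower and 80.2% of the higher protein-coding genes.

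**Figure D2:**
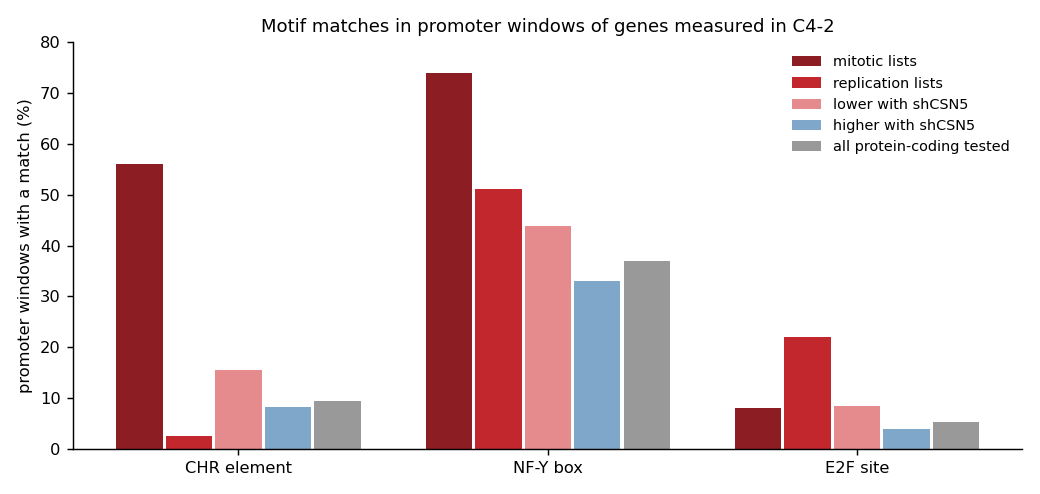
Share of promoter windows (percent, 300 bases each) with at least 1 match on either strand, by motif and gene set, for protein-coding genes measured in C4-2. The letters TTTGAA, searched for the CHR element, were in 56.0% of the mitotic promoters and 9.34% of those of all protein-coding genes tested. The E2F site was in 22.0% of the licensing and fork promoters and 5.27% of those of all protein-coding genes tested.

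Of 7 genes of the MuvB complex and of the factors that work with it 4 fell and 3 were not called, with changes up to 0.28. FOXM1, an activator of mitotic genes, was at 90.99 and 89.7 CPM with shCSN5 and 201 and 205 CPM with scramble (-1.16 ± 0.089), and MYBL2, which works with the MuvB complex, was at 38.9 and 29.8 CPM with shCSN5 and 136 and 179 CPM with scramble (-2.20 ± 0.17, adjusted p = 0.00016). Of 13 E2F and pocket protein genes 8 fell and 1 rose, with E2F1 at -1.29 ± 0.13 and E2F8, itself a repressor, at -1.70 ± 0.15. LMNB1, the nuclear lamin whose loss marks senescent cells, was at 65.5 and 67.3 CPM with shCSN5 and 271 and 234 CPM with scramble (-1.93 ± 0.11). HMGB2, a chromatin protein, was at 75.7 and 74.6 CPM with shCSN5 and 237 and 222 CPM with scramble (-1.61 ± 0.093). Of 8 G1 cyclins and their kinases 5 fell and none rose, among them CDK6 (-1.95 ± 0.18) and CDK2 (-1.05 ± 0.11). That count was 3 without either shCSN5 library.

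Among the 7 CDK inhibitors tested 2 rose, 1 fell and 4 were not called, where 15.7% of all genes tested rose and 16.2% fell. CDKN1A, which encodes p21, was at 1319.7 and 1224 CPM with shCSN5, against 187 and 212 CPM with scramble (2.67 ± 0.11, adjusted p = 2.9e-05). CDKN2B, which encodes p15, was at 5.37 and 5.29 CPM with shCSN5 and 1.47 and 1.38 CPM with scramble (1.90 ± 0.18). CDKN2C, which encodes p18, was at 15.8 and 13.8 CPM with shCSN5 and 34.4 and 35.01 CPM with scramble (-1.23 ± 0.14). For these 3 genes the groups did not overlap, as held for 66.1% of all genes tested, 31.9% with shCSN5 above and 34.2% with shCSN5 below. CDKN1B, which encodes p27, was at 60.8 and 64.96 CPM with shCSN5 and 54.1 and 49.96 CPM with scramble (0.27 ± 0.11, adjusted p = 0.093), CDKN2A at 6.76 and 6.14 CPM with shCSN5 and 7.96 and 10.9 CPM with scramble (-0.55 ± 0.19), CDKN2D at -0.14 and CDKN1C at 0.12 on the log2 scale.

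Targets of p53, the transcription factor of the DNA damage response, were divided by function, and each group was higher. Of 14 arrest and feedback genes 12 rose and 1 fell (median 1.53). BTG2, an antiproliferative gene, was at 125 and 124 CPM with shCSN5 and 26.03 and 24.2 CPM with scramble (2.31 ± 0.10), and ZMAT3, an RNA-binding protein, at 163 and 168 CPM with shCSN5 and 46.2 and 42.3 CPM with scramble (1.90 ± 0.10). The exception was PLK2, a polo-like kinase, at 20.7 and 23.5 CPM with shCSN5 and 34.6 and 29.6 CPM with scramble (-0.54 ± 0.14, adjusted p = 0.024), a call lost when any of the 4 libraries was left out. Of 13 cell death targets 10 rose and none fell (median 0.64): the decoy receptor TNFRSF10D was at 161 and 157 CPM with shCSN5 and 41.6 and 41.6 CPM with scramble (1.93 ± 0.096), and the death receptor FAS at 30.9 and 32.9 CPM with shCSN5 and 9.04 and 8.75 CPM with scramble (1.84 ± 0.14). All 11 targets of repair and metabolism tested rose, from 0.43 for XPC to 1.83 for FDXR, with the ceramidase ACER2 at 1.59 ± 0.13. TP53I3 was at 49.7 and 48.8 CPM with shCSN5 and 6.45 and 6.41 CPM with scramble. Of 11 BCL2 family genes 7 rose and 1 fell, BID, a death agonist, at 1.37 ± 0.13 and BMF, another, at 1.15 ± 0.15. The BCL2 family count of 8 was 3 without shCSN5 replicate 1, 4 without shCSN5 replicate 2 or without scramble replicate 1, and 5 without scramble replicate 2.

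**Figure D3:**
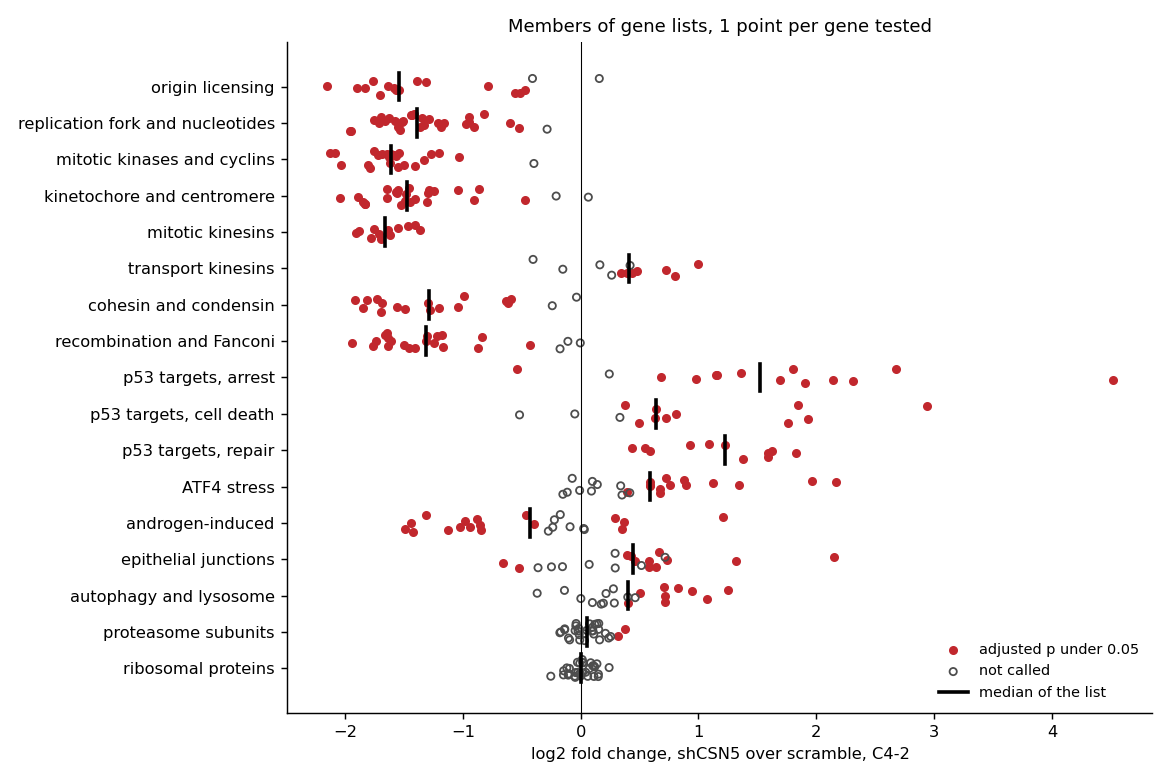
Log2 fold change of shCSN5 over scramble for the members of 17 gene lists in C4-2, 1 point per gene tested, filled where the edgeR adjusted p was under 0.05, with the median of each list as a bar. Replication and mitosis lists lie left of 0, with medians from -1.29 to -1.66, the 3 p53 target lists lie right of 0, with medians from 0.64 to 1.53, and ribosomal proteins lie around 0, with a median of 0.01.

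Genes of amino acid supply and of the stress factor ATF4 were higher. Of 24 members 14 rose and none fell, with a median of 0.59. DDIT4, an inhibitor of mTORC1 signalling, was at 147 and 143 CPM with shCSN5, against 35.5 and 38.9 CPM with scramble (1.96 ± 0.10, adjusted p = 6.2e-05). CHAC1, which degrades glutathione, was at 10.1 and 7.29 CPM with shCSN5 and 1.85 and 2.01 CPM with scramble (2.17 ± 0.22). ATF3, a stress transcription factor, was at 73.6 and 76.97 CPM with shCSN5 and 31.4 and 27.8 CPM with scramble (1.34 ± 0.12). Transporters and synthetases moved unevenly: the cystine transporter gene SLC7A11 (0.73 ± 0.12) and the synthetase genes GARS (0.67 ± 0.099) and CARS (0.59 ± 0.10) rose, while SLC7A5, a transporter of large amino acids, at 0.34 ± 0.16, and AARS, at -0.07 ± 0.085, were not called. In serine synthesis PSAT1 rose (0.90 ± 0.10), while PHGDH (-0.01 ± 0.11) and the one-carbon enzyme gene MTHFD2 (-0.15 ± 0.099) were not called; these examples were picked after their values were seen, to show both ends of the list. The promoter of CHAC1 is given, since this gene is a known direct target of ATF4 and its window (chr15:40953221-40953520, plus strand, RefSeq on GRCh38.p14) holds 1 match to the ATF4 composite motif TGATGNAA, in capitals, here on the other strand at position -209.
CHAC1 promoter: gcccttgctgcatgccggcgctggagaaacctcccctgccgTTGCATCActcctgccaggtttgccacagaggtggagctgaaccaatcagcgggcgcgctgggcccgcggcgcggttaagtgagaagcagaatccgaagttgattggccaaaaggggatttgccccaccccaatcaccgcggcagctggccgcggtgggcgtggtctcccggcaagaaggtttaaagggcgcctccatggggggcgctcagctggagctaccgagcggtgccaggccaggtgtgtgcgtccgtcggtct

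That motif, searched on both strands, was found in 1.72% of 10046 promoters of protein-coding genes tested and in 3.67% of all 27305. No share is given for the ATF4 list, since only 79.2% of its members had a promoter in the table. The chaperones of the endoplasmic reticulum, which another arm of that stress response controls, went the other way: of 16, 7 fell and 2 rose. HSP90B1, the chaperone GRP94, was at 961 and 1009 CPM with shCSN5 and 1670.2 and 1431 CPM with scramble (-0.65 ± 0.10), and PDIA4, a disulfide isomerase, at 195 and 187 CPM with shCSN5 and 332 and 347 CPM with scramble (-0.83 ± 0.088). Their count of 9 was 5 without shCSN5 replicate 1 (1 higher) and 4 without shCSN5 replicate 2 (none higher).

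Genes that androgen induces in prostate cells fell more often than they rose. Of 24 androgen-induced genes 13 fell, 4 rose and 7 were not called, with a median of -0.43. FKBP5, a cochaperone and a strong androgen target, was at 252 and 267 CPM with shCSN5 and 751 and 660.1 CPM with scramble (-1.44 ± 0.10), and NDRG1, a stress and differentiation gene, at 215 and 208 CPM with shCSN5 and 393 and 420.0 CPM with scramble (-0.94 ± 0.089). In both, the shCSN5 libraries lay well below the scramble libraries. NCAPD3 (-1.49 ± 0.098) is counted here and among the condensin genes. ALDH1A3, which makes retinoic acid, was at 226 and 238 CPM with shCSN5 and 104 and 96.9 CPM with scramble (1.21 ± 0.094). Among genes of secreted and surface proteins of luminal cells 2 of 12 were higher and 3 lower, against 15.7% and 16.2% of all genes tested. ACPP, prostatic acid phosphatase, was at 67.4 and 68.1 CPM with shCSN5 and 12.5 and 10.8 CPM with scramble (2.54 ± 0.13), and the protease gene TMPRSS2 at 681 and 656 CPM with shCSN5 and 355 and 343 CPM with scramble (0.94 ± 0.086). KLK2, a kallikrein, was at 337 and 318 CPM with shCSN5 and 516 and 573 CPM with scramble (-0.74 ± 0.095). Of 3 neuroendocrine genes tested none was called by edgeR, with changes from -0.56 to 0.04, with 1 at an unadjusted p under 0.05 and 0 called by DESeq2.

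**Figure D4:**
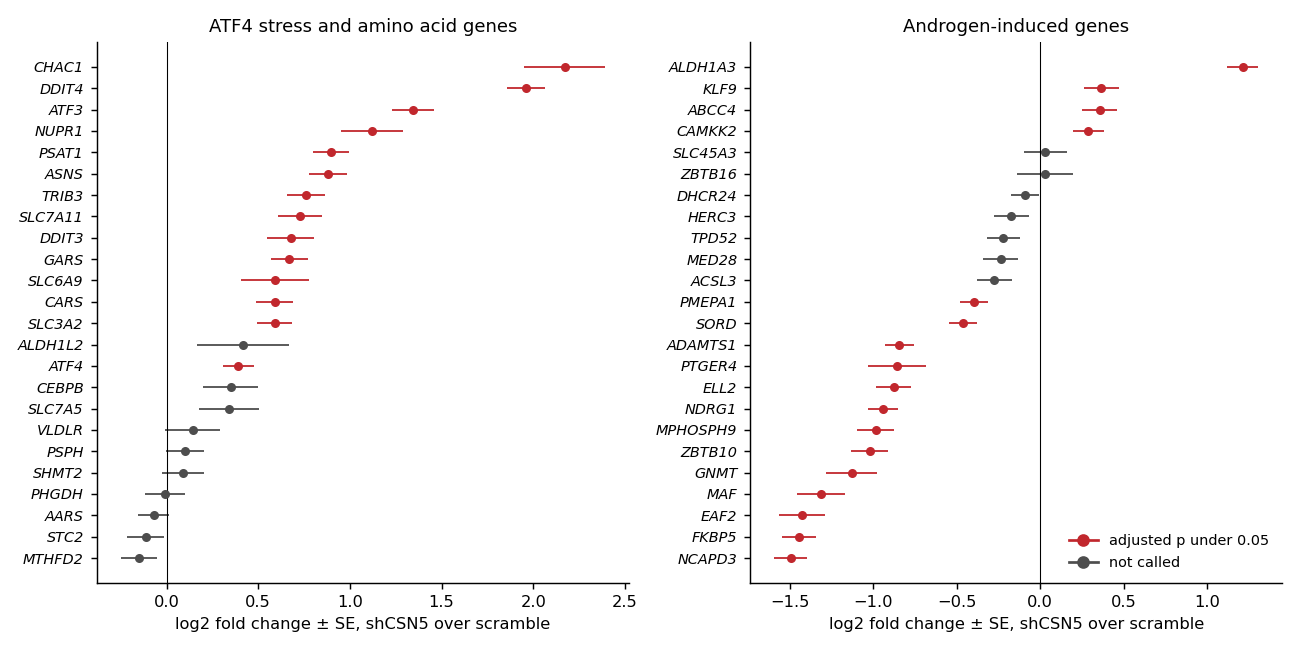
Log2 fold change ± SE (n = 2 libraries per group) of each tested member of the ATF4 list (left) and of the androgen-induced list (right) in C4-2, red where the edgeR adjusted p was under 0.05. Of 24 ATF4 genes 14 lie right of 0 in red, and of 24 androgen-induced genes 13 lie left of 0 and 4 right of 0 in red.

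Cell contact genes were among those that rose. Of 20 epithelial junction genes 10 rose and 2 fell (median 0.45). OCLN, which encodes the tight junction protein occludin, was at 129 and 137 CPM with shCSN5, against 31.9 and 28.2 CPM with scramble (2.15 ± 0.11, adjusted p = 6.2e-05), and DSP, desmoplakin, at 399.5 and 406 CPM with shCSN5 and 262 and 246 CPM with scramble (0.67 ± 0.088). The desmosomal cadherin gene DSG2 was lower, at 626 and 663 CPM with shCSN5 and 991 and 862 CPM with scramble (-0.52 ± 0.10). Of 6 mesenchymal genes 3 fell and 1 rose, a count of 4 that was 2 without any of the 4 libraries. FN1, fibronectin, was lower (-0.68 ± 0.083), and SNAI2, a repressor of epithelial genes, was at 3.28 and 2.86 CPM with shCSN5 and 10.7 and 10.7 CPM with scramble (-1.80 ± 0.16). KRT80, a keratin, was at 18.7 and 16.1 CPM with shCSN5 and 4.83 and 6.99 CPM with scramble (1.56 ± 0.20). KRT7 had 25 counts over both shCSN5 libraries and 0 over both scramble libraries, at least 8.01-fold higher against a floor of 3 counts over the group. MMP7, a secreted metalloprotease, had 118 counts with shCSN5 and 3 with scramble, a ratio of 37.8 (95% counting interval 12.6 to 186).

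In the TNF family of ligands, receptors and adaptors 7 of 14 rose and 1 fell. BIRC3, an inhibitor of apoptosis, was at 17.6 and 17.99 CPM with shCSN5 and 3.05 and 2.05 CPM with scramble (2.80 ± 0.20), and the death receptor gene TNFRSF21 at 92.7 and 89.97 CPM with shCSN5 and 38.8 and 36.9 CPM with scramble (1.27 ± 0.10). Of 15 subunits and feedback genes of NF-kB 4 rose and none fell, and that count was 1 without shCSN5 replicate 1, 2 without shCSN5 replicate 2 and 0 without scramble replicate 1. Only 6 of 24 secreted factors of senescence passed the filter on low counts. Of those 6, LIF, a cytokine (1.84 ± 0.19), EDN1, endothelin (2.60 ± 0.29), and TIMP2, a protease inhibitor (1.06 ± 0.11), were higher, and IGFBP3, which binds insulin-like growth factors, was lower at 36.96 and 39.6 CPM with shCSN5 and 124 and 120.2 CPM with scramble (-1.67 ± 0.10). In the same axis IGF2R, the receptor that clears IGF2, was at 371 and 368 CPM with shCSN5 and 176 and 177 CPM with scramble (1.07 ± 0.086), and the insulin receptor gene INSR at 46.96 and 46.7 CPM with shCSN5 and 26.8 and 26.7 CPM with scramble (0.81 ± 0.11).

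The counts of the next lists stand beside 15.7% higher and 16.2% lower over all genes tested. Of 20 autophagy and lysosome genes 9 rose and none fell (median 0.40). Among them were the sialidase NEU1 (1.25 ± 0.11) and the autophagosome proteins GABARAPL1 (1.07 ± 0.11) and MAP1LC3B (0.94 ± 0.12). Of 17 NRF2 targets 7 rose and none fell. TXNRD1, thioredoxin reductase, was at 1780.3 and 1855 CPM with shCSN5 and 955 and 839 CPM with scramble (1.02 ± 0.098), while NQO1, a classical target chosen here after its value was seen, was not called (-0.10 ± 0.097). Of 10 fatty acid synthesis genes 2 rose and 2 fell, a count of 4 that was 2, both higher, without shCSN5 replicate 1. SCD, which makes monounsaturated fatty acids, was at 996 and 1043 CPM with shCSN5 and 379 and 331 CPM with scramble (1.52 ± 0.10), while the desaturase gene FADS1 (-0.48 ± 0.095) and the elongase gene ELOVL5 (-0.33 ± 0.10) were lower. FADS1 was not called without shCSN5 replicate 1, and ELOVL5 was not called without that library, shCSN5 replicate 2 or scramble replicate 1, with RLE size factors or with no filter on low counts. Of 20 cholesterol synthesis genes 7 rose and 1 fell, a count of 8 that was 3 without shCSN5 replicate 1, 4 without shCSN5 replicate 2 and 5 without scramble replicate 2. FDFT1, squalene synthase, was at 977 and 1005 CPM with shCSN5 and 612 and 565 CPM with scramble (0.75 ± 0.089). Feedback genes of ERK signalling split, with 9 of 17 higher, such as the phosphatase DUSP4 (1.20 ± 0.12), and 4 lower, such as SPRY1 (-0.83 ± 0.14). The ERK count of 13 was 7 without scramble replicate 1. MYC fell to 105 and 101 CPM with shCSN5, against 143 and 165 CPM with scramble (-0.58 ± 0.10). Of 24 ribosome biogenesis genes 9 fell and none rose, with NOP56, a nucleolar protein, at -0.70 ± 0.087, and 4 fell without either shCSN5 library.

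Few housekeeping genes were called. Of 32 cytosolic ribosomal protein genes none was called by edgeR, with changes from -0.25 to 0.24 on the log2 scale, with 0 at an unadjusted p under 0.05 and 0 called by DESeq2. Of 31 proteasome subunits 2 were called, PSMD13 (0.38 ± 0.086) and PSMB7 (0.31 ± 0.090), both higher, with 0 called without either shCSN5 library and 1 without scramble replicate 2. Of 28 nuclear genes of oxidative phosphorylation 3 rose and none fell, a count that was 1 without shCSN5 replicate 1, 0 without shCSN5 replicate 2 and 1, lower, without scramble replicate 2. In the main fit 9 of the 15 mitochondrially encoded genes tested rose and none fell (median 0.32, a family counted after its values were seen). The mitochondrial share of each library was 5.59% and 5.82% with shCSN5 and 4.93% and 4.59% with scramble. The part of that share in other results was not tested.

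The change in C4-2 was then set against that in 22Rv1 and in LNCaP by testing the difference of the 2 changes in edgeR. The change differed from that in 22Rv1, measured in the same table, for 2262 of 17014 genes (13.3%), with C4-2 above in 1321 (7.76%) and below in 941 (5.53%). With library totals in place of TMM scaling the split was 945 above and 1298 below, and the median difference over all genes moved from -0.03 to -0.13. Against LNCaP the count was 1913 of 15801 (12.1%), 1138 above (7.2%) and 775 below (4.9%), but LNCaP is in another count table, so line and table cannot be told apart there. Both counts depend on single libraries. Against 22Rv1 the count was 1287 and 1043 without C4-2 shCSN5 replicate 1 and 2, 984 and 1141 without 22Rv1 shCSN5 replicate 1 and 2, and 1269 without 22Rv1 scramble replicate 2. Against LNCaP it was 830 and 904 without C4-2 shCSN5 replicate 1 and 2, 644 and 649 without LNCaP scramble replicate 1 and 2, and 4540 without LNCaP shCSN5 replicate 2.

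The ATF4 list set C4-2 apart from both lines. Of its 24 members 14 changed more upward in C4-2 than in 22Rv1 and 1 less, and 15 more upward than in LNCaP and 1 less. The median change was 0.59 in C4-2, -0.11 in 22Rv1 and -0.39 in LNCaP. DDIT4 was at 22.1 and 20.3 CPM with shCSN5 and 17.1 and 15.8 CPM with scramble in 22Rv1, where the difference from C4-2 was 1.61 ± 0.13 (adjusted p = 0.00018), and at 148 and 179 CPM with shCSN5 and 195 and 188 CPM with scramble in LNCaP, a difference of 2.25 ± 0.16 (adjusted p = 0.00031). CHAC1 changed by 2.17 in C4-2, by 0.92 in 22Rv1, where it was also called higher (adjusted p = 0.0069), and by -0.54 in LNCaP. The difference was 2.77 ± 0.41 from LNCaP (adjusted p = 0.0053) and 1.27 ± 0.34 from 22Rv1 (adjusted p = 0.041), the second of these not called without any 1 of 6 of the 8 libraries. ATF3 was an exception, with a smaller increase in C4-2 than in 22Rv1 (difference -1.06 ± 0.10, adjusted p = 0.00036).

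Histone genes that are read from polyadenylated transcripts, 6 replication-type genes and H1F0, which encodes a linker histone made outside S phase, moved apart as well. In C4-2, 4 of these 7 fell, H1F0 among them (-1.48 ± 0.091), and 1 rose (median -0.39), whereas their median change was 1.30 in 22Rv1 and 1.41 in LNCaP, and 6 of the 7 lay below each of those lines in the test of the difference, with 1 above LNCaP. Without shCSN5 replicate 2 the C4-2 count was 3, all lower. HIST1H2BK was at 172 and 165 CPM with shCSN5 and 236 and 265 CPM with scramble in C4-2, against 82.3 and 77.1 CPM with shCSN5 and 23.3 and 25.1 CPM with scramble in 22Rv1 and 275 and 315 CPM with shCSN5 and 110.0 and 113 CPM with scramble in LNCaP. The differences were -2.27 ± 0.12 from 22Rv1 (adjusted p = 2.3e-05) and -1.92 ± 0.15 from LNCaP (adjusted p = 0.00035). Counted by symbol after their values were seen, 14 of 31 replication-type histone genes fell in C4-2 and 1 rose. Near-identical histone copies share reads, so each such gene is uncertain.

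For mitotic and recombination genes the decrease in C4-2 was smaller than that in LNCaP. COPS5 also fell less in C4-2 (-3.56) than in LNCaP (-4.50), and the part of knockdown depth in these differences was not tested. The change in C4-2 was above that in LNCaP for 21 of 23 mitotic kinases, cyclins and regulators, 18 of 26 kinetochore genes, 11 of 12 mitotic kinesins and 17 of 23 recombination and Fanconi genes, with 1 of the last below. CDC20 was at 5.61 and 5.31 CPM with shCSN5 and 121 and 128 CPM with scramble in LNCaP (difference 2.48 ± 0.16, adjusted p = 0.00025), and BRCA2 at 0.220 and 0.287 CPM with shCSN5 and 13.4 and 14.5 CPM with scramble (difference 4.21 ± 0.23, adjusted p = 0.00018). Against 22Rv1 the difference ran the other way and was smaller: 11 of the 23 mitotic regulators fell more in C4-2 and none less. That count was 2 and 3 without C4-2 shCSN5 replicate 1 and 2, 4 and 2 without 22Rv1 shCSN5 replicate 1 and 2, and 5 without 22Rv1 scramble replicate 1. Among androgen-induced genes 11 of 24 lay below LNCaP and 2 above, with FKBP5 at -1.44 in C4-2 and 0.05 in LNCaP (difference -1.43 ± 0.17, adjusted p = 0.002). Against 22Rv1, 6 of the 24 lay below and 5 above, and the list median was -0.38 in 22Rv1 and -0.43 in C4-2. FKBP5 was lower with shCSN5 in 22Rv1 too, at 216 and 226 CPM, against 480 and 517 CPM with scramble.

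Several genes changed in a different direction in C4-2 than in at least 1 of the other lines. PLK2 was at 71.4 and 74.2 CPM with shCSN5 and 6.59 and 8.14 CPM with scramble in 22Rv1 and at 209 and 169 CPM with shCSN5 and 39.6 and 44.5 CPM with scramble in LNCaP, and its change in C4-2 lay below both (-3.82 ± 0.17, adjusted p = 1.2e-05, and -2.65 ± 0.20, adjusted p = 0.00034). IGFBP3 changed by -1.67 in C4-2, 0.08 in 22Rv1 and 2.92 in LNCaP, with differences of -1.73 ± 0.088 (adjusted p = 1.9e-05) and -4.53 ± 0.14 (adjusted p = 1.9e-05). NDRG1 changed by -0.94 in C4-2, 0.44 in 22Rv1 and 0.26 in LNCaP (differences -1.36 ± 0.10, adjusted p = 0.0001, and -1.15 ± 0.12, adjusted p = 0.0012). ID4, an inhibitor of helix-loop-helix factors, changed by -1.78 in C4-2, -0.39 in 22Rv1, where it also fell (adjusted p = 0.0029), and 2.66 in LNCaP (difference of C4-2 from LNCaP -4.38 ± 0.30, adjusted p = 0.00027). The level of ID4 in LNCaP was low, at 2.46 and 2.22 CPM with shCSN5 and 0.383 and 0.348 CPM with scramble. NR4A1, an immediate early gene, changed by -0.97 in C4-2, 2.62 in 22Rv1 and -1.49 in LNCaP, where it also fell (adjusted p = 0.0082), and the difference of C4-2 from 22Rv1 was -3.57 ± 0.31 (adjusted p = 0.00021). The decrease of NR4A1 within C4-2 was not called without scramble replicate 2. Of 14 immediate early genes 7 lay below 22Rv1 and none above.

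**Figure D5:**
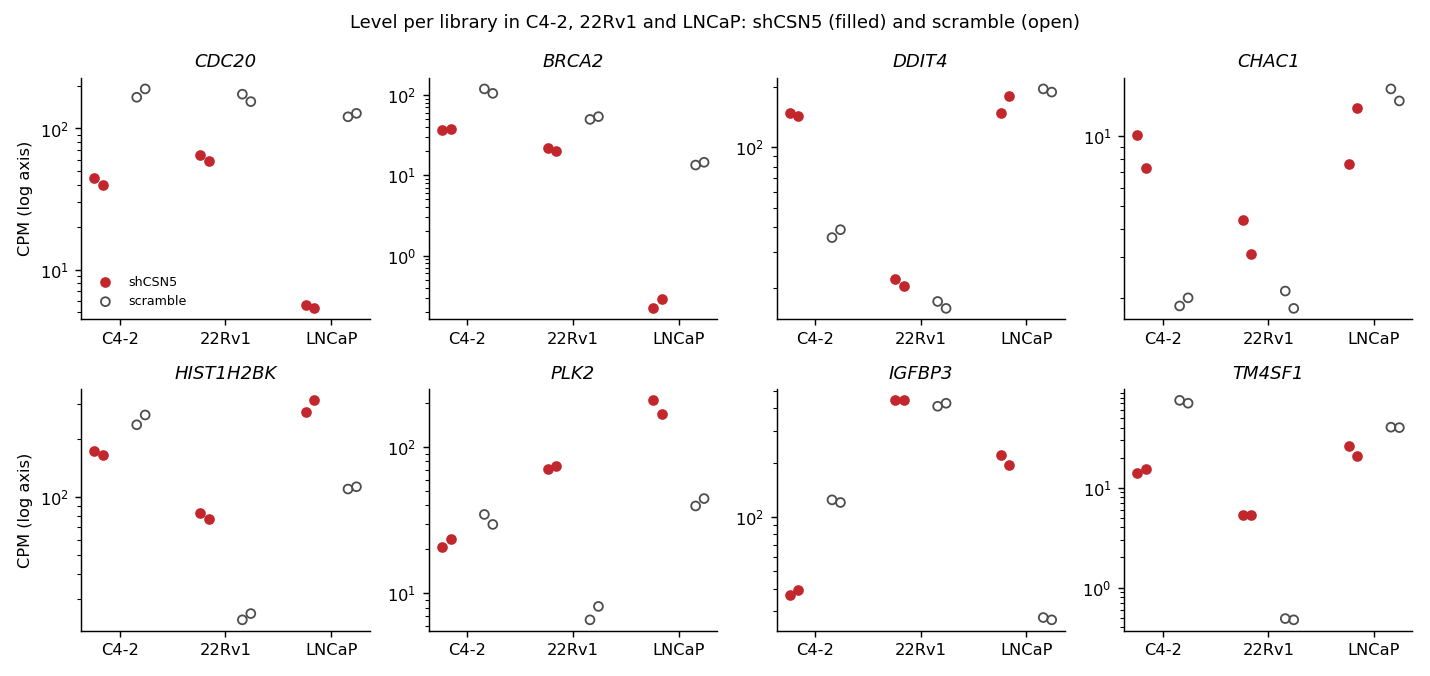
CPM on a log axis of 8 genes in each library of C4-2, 22Rv1 and LNCaP, shCSN5 filled and left of scramble, open. DDIT4 was higher with shCSN5 than with scramble in C4-2 (147 and 143 CPM against 35.5 and 38.9 CPM) but not in LNCaP, PLK2 and HIST1H2BK were higher in 22Rv1 and LNCaP but lower in C4-2, and CDC20 was lower in all 3 lines.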

How the data were processed

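Total RNA of cultured cells was sequenced, and the authors deposited raw counts per gene and library, whole numbers in tables of 57445 Ensembl identifiers. Partek was used, per the submitters' processing notes, without a version. What aligner, genome build, annotation and strand were used is not given in the sources used here, so a gene and its antisense partner, and near-identical copies, may share reads. In the table of C4-2 and 22Rv1 27 symbols that had become dates were replaced through their identifiers, and 89.6% of identifiers matched a current name.

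Groups follow the labels. The 4 C4-2 libraries were fitted alone (R 4.3.3, edgeR 4.0.16, limma 3.58.1) by quasi-likelihood after TMM scaling and filterByExpr, whose minimum count was 10, leaving 2 residual degrees of freedom. Calls have a Benjamini-Hochberg adjusted p under 0.05, and each SE was obtained from the log2 fold change and the root of its F statistic. Differences between lines are interaction terms over 8 libraries. The fits were tested on simulated data. DESeq2 1.42.0, other scalings, no filter, a replicate block, a spread shared by 8 libraries and leaving out each library were alternatives. With 1 library left in a group, that library is assumed to vary like the other group. Floors (3 counts over a group) and intervals cover counting error only. Library totals of 23414844 to 26234285 counts limit genes of few counts most.

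The members and lists were chosen with earlier results of these data known, and lists have counts and medians but no test of their own. Genes named are COPS5, the 10 largest called increases and decreases (mean over the libraries 5 CPM or more, groups not overlapping, clone-based names passed over), all COP9 subunits and CDK inhibitors, and in each list the 3 called members of either direction whose adjusted p was smallest. Other genes were named after their values were seen, and some genes are not reported here. Promoters are RefSeq windows on GRCh38.p14, found for 81.8% of 12281 protein-coding genes tested. Samples of the inhibitor experiment and of PC3 were not analysed here.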

Additional observations from a re-analysis of the deposited data

Results flagged for a closer look

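Several genes named above had a change with shCSN5 in C4-2 that differed from that in another line by the interaction test of edgeR. Values are log2 differences, C4-2 minus the other line, ± SE, with 2 libraries in each of the 4 groups of a test.

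COPS5 itself fell further in C4-2 than in 22Rv1 (-0.86 ± 0.13, adjusted p = 0.0032) and less far than in LNCaP (1.0 ± 0.25, adjusted p = 0.039). The second call was lost without any of the 4 C4-2 libraries or either LNCaP scramble library, with adjusted p of 0.0568 to 0.147 over these and the other settings that lost it. The part of knockdown depth in the other differences from 22Rv1 and from LNCaP was not tested.

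On the log2 scale increases were larger in C4-2 than in both other lines for CAMK2N1 (3.35 ± 0.12 from 22Rv1, adjusted p = 3.5e-06, and 3.18 ± 0.15 from LNCaP, adjusted p = 0.00018), S100P (2.29 ± 0.10, adjusted p = 1.2e-05, and 1.24 ± 0.11, adjusted p = 0.0007) and BLNK (2.15 ± 0.25, adjusted p = 0.001, and 1.73 ± 0.24, adjusted p = 0.0039). Each of these genes had a lower scramble level in C4-2 than in the other lines. With scramble CAMK2N1 was at 5.21 and 4.86 CPM in C4-2, 8.54 and 9.3 CPM in 22Rv1 and 85.4 and 86.9 CPM in LNCaP. With shCSN5 CAMK2N1 was at 195 and 186 CPM in C4-2, 33.3 and 33.9 CPM in 22Rv1 and 408 and 340 CPM in LNCaP. The part of the scramble level in these differences was not tested. TNFSF15 (3.69 ± 0.14, adjusted p = 5.3e-06) and TP53I3 (1.41 ± 0.25, adjusted p = 0.0078) rose more than in 22Rv1, and CDH26 rose more than in LNCaP (1.63 ± 0.18, adjusted p = 0.0016). EGLN3 lay between the lines, above 22Rv1 (1.13 ± 0.18, adjusted p = 0.0042) and below LNCaP (-2.21 ± 0.14, adjusted p = 0.00023).

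TM4SF1 was lower with shCSN5 in C4-2 but changed by 3.47 in 22Rv1, a difference of -5.74 ± 0.19 (adjusted p = 3.5e-06), and its difference from LNCaP was -1.48 ± 0.18 (adjusted p = 0.0025). RND3 changed by -2.99 in C4-2 and by 0.17 in 22Rv1 (difference -3.13 ± 0.18, adjusted p = 2.9e-05), and TMEM100 by -2.89 in C4-2 and by 0.57 in LNCaP (difference -3.39 ± 0.34, adjusted p = 0.0011). Neither RND3 in 22Rv1 (edgeR adjusted p = 0.34) nor TMEM100 in LNCaP (edgeR adjusted p = 0.25) was called. TMEM100 in LNCaP was low, at 0.587 and 0.502 CPM with shCSN5 and 0.415 and 0.313 CPM with scramble. SLC16A6 fell further in C4-2 than in 22Rv1 (-1.40 ± 0.19, adjusted p = 0.0022) and than in LNCaP (-1.52 ± 0.20, adjusted p = 0.0033), and NES further than in 22Rv1 (-1.19 ± 0.18, adjusted p = 0.0033). CCDC141 fell further than in LNCaP (-1.55 ± 0.31, adjusted p = 0.018), a call lost without C4-2 shCSN5 replicate 1 or 2, C4-2 scramble replicate 1 or LNCaP scramble replicate 1. IGF1 fell less than in 22Rv1 (0.76 ± 0.21, adjusted p = 0.043), a call lost without any C4-2 or 22Rv1 library other than the first scramble replicate of each line, and under RLE factors, library totals, DESeq2, no filter and the replicate block (adjusted p of 0.0501 to 0.173).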

How the results depend on the processing

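COPS5 kept its call under all alternatives run (-3.47 to -3.64, adjusted p up to 0.0268). The 4754 calls became 3139 without a filter on low counts and 2941 to 3288 with each library left out. The count was 4884 with RLE factors, 4887 with library totals, 3761 with DESeq2 and 6101 with the spread of 8 libraries. The share of lower genes whose promoter holds TTTGAA, 15.5%, was 17.6% without the filter, 13.1% with crossed numbers and 16.7% to 17.7% with each library left out. Called members over all lists, 459, ran from 361 to 597, and were 351 to 392 with each library left out.

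Replicate numbers are shared by the groups, but deviations of same-numbered libraries correlated at -0.531, so same-numbered libraries did not deviate together. Whether libraries of the groups were handled in pairs is not stated in the labels. The scramble libraries differed more from each other than the shCSN5 libraries did, with a chi-square per gene of 21.3 against 6.26. The main fit used a single spread for both groups. A replicate block gave 3543 calls in C4-2, 1237 differences from 22Rv1 in place of 2262 and 831 from LNCaP in place of 1913. A block with crossed numbers, chosen after seeing the data, gave 7890 calls. With each library left out the differences ran from 984 to 3223 for 22Rv1 and from 644 to 4540 for LNCaP. The cause of these shifts was not tested.

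Of 215 named genes none reversed under any of the 11 alternatives for C4-2. All were chosen as called in these same libraries, which every alternative used in whole or in most part. The lack of reversals is therefore no test of their direction. Of these genes, 17 lost their call in DESeq2, 33 without the filter, 24 with the replicate block, and 38, 35, 34 and 29 without shCSN5 replicate 1, shCSN5 replicate 2, scramble replicate 1 and scramble replicate 2. In lists, counts of called members moved by over 1.5 times in 21, 20, 14 and 15 of 60 on the same omissions. Depth limited genes of few counts most.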

Other observations

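Counted after their values were seen, 7.14% of the 1008 genes tested on human chromosome 19 were higher with shCSN5 in C4-2 and 15.4% were lower, while on chromosome 20 21.7% of 368 were higher and 10.3% lower. Over all genes tested these shares were 15.7% and 16.2%. Among 613 genes annotated as antisense 8.65% were higher and 19.6% lower, and among 592 processed pseudogenes 2.87% were higher and 3.55% lower. The strand counted is not given in the sources used here, so reads of an antisense gene and of its partner cannot be told apart.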
